A study of Mus musculus with 8 samples.

Results

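Genes of interleukin-6 (IL-6) signalling were followed through the liver cells of control mice and of mice with non-alcoholic steatohepatitis (NASH) and fibrosis. They were the cytokine Il6, the receptor subunits Il6ra and Il6st, the kinase Jak1, the transcription factor Stat3, and the suppressors of cytokine signalling Socs1, Socs2, Socs3 and Cish. They were taken from the deposited gene tables by symbol, and each symbol named 1 of the 55450 genes listed, so that 9 of 55450 genes are described. Neither they nor the other genes of the pathway served to cluster the cells.

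All mice were wild-type C57BL/6. Control mice (n = 2) received normal diet and drinking water. HFD+F+CCl4 mice (n = 3) received a high-fat diet with fructose solution and intraperitoneal carbon tetrachloride (CCl4), an agent that injures hepatocytes, and WD+F+CCl4 mice (n = 3) received a western diet with the same fructose and CCl4. Diet, fructose and CCl4 were never given apart in the mice sequenced, no age was given in the sources used here, and each library came from dissociated liver tissue of a separate mouse, so that the effects of the 3 agents cannot be told apart.

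IL-6 binds the receptor alpha chain, encoded by Il6ra, on the cell surface or as a shed soluble protein, and the complex then engages gp130, encoded by Il6st, which is shared by all cytokines of the family. The receptor activates Janus kinases such as Jak1, which phosphorylate Stat3, and Stat3 dimers enter the nucleus and bind DNA. Socs3 is induced by this signal and binds gp130 to end it, Socs1 inhibits the kinases, above all after interferon, and Cish and Socs2 are induced by Stat5 downstream of interleukin-2, growth hormone and related cytokines and dampen those receptors. In the liver, IL-6 is known for the acute-phase response of hepatocytes and for its part in regeneration.

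A total of 80474 barcodes had more than 500 genes and under 25% mitochondrial UMIs (unique molecular identifiers, each counting 1 captured mRNA molecule). They numbered 4168 to 11999 per mouse and held 5305581 to 63878061 UMIs, with the fewest in control replicate 2, and 1467 of them had a barcode sequence that occurred in at least 2 libraries. Clusters were named from marker genes, and each of the 16 names stands for cells like that type. Another 3899 cells, all but 1 from the controls and led by the hepatocyte transcripts Mup3, Serpina3k and Mug1, were not named. Levels are given as CPM, the UMIs of a gene per 1000000 UMIs of all cells of that type in that mouse, for types with at least 20 cells in the mouse. The controls held few cells of some types: lipid-associated macrophages numbered 55 and 21, cycling cells 33 and 28, and NK cells 465 and 27 in replicates 1 and 2.

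The members lie on 8 chromosomes of GRCm38. Il6 is on chromosome 5 at chr5:30013114-30019981 on the plus strand, Il6ra at chr3:89864059-89913196 on the minus strand, Il6st at chr13:112464070-112510086 on the plus strand and Jak1 at chr4:101152367-101265282 on the minus strand. Stat3 at chr11:100885098-100939540 and Socs3 at chr11:117966079-117970047 share a chromosome and the minus strand. Socs1 is at chr16:10782240-10785536 and Socs2 at chr10:95385362-95417180, both on the minus strand, and Cish is at chr9:107296026-107302784 on the plus strand. Stat3 overlaps Stat5a and Jak1 overlaps Raver2 and Gm24468, each on the other strand, as do Il6ra with Gm42809 and Cish with Gm17040 and Gm17041, so that reads of these genes are separated only as far as the counting used strand. Jak1 also overlaps Gm12785 on its own strand, so that its counts are uncertain where the genes share sequence.

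STAT dimers bind a palindrome, TTCNNNGAA, which reads the same on both strands. RefSeq promoter windows of 300 bases (250 before and 50 after the annotated start) were at hand for 8 members, all but Socs2, and the letters were found in 2 of them, Socs3 and Cish, against 2726 of 32851 windows (8.30%) of all genes. The Cish window held 2 copies, which 150 windows (0.457%) did. The stretches around the palindromes, with their letters in capitals and read 5′ to 3′ on the strand of the gene, are shown because Socs3 and Cish were the members whose windows held it. The Socs3 stretch lies at chr11:117969502-117969531 on the minus strand, within 1 of the 3 annotated transcripts and in none of the exons. The Cish stretch lies at chr9:107296654-107296683 on the plus strand, in an exon of 1 of the 5 transcripts.
Socs3: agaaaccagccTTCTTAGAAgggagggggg
Cish: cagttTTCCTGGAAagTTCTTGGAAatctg
A match to these letters is a description of the sequence, and STAT binding was not measured.

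Il6 itself was barely captured. In all libraries together 87 UMIs of Il6 were counted, in 68 of 80474 cells (0.0845%). Over all cells of a mouse its level was 0.195 and 2.45 CPM in the controls, 0.651, 0.116 and 0.167 CPM in HFD+F+CCl4 mice and 0.192, 0.131 and 0.0313 CPM in WD+F+CCl4 mice. The second control stood above all other mice, and the first lay within the range of the NASH mice. The mean was 1.32 ± 1.59 CPM in the controls (SD, n = 2) and 0.215 ± 0.221 CPM in NASH mice (SD, n = 6), a difference of −0.76 on the log2(CPM + 1) scale (exact two-sided permutation test, p = 0.0714 over 28 splits, of which the smallest possible p is 0.0357). Without control replicate 2, 12 of whose 13 UMIs lay in the unnamed cells, the difference was 0.0059. Among the named types, cycling cells held the most, 22 UMIs in 14 cells (0.719% of cycling cells), of which WD+F+CCl4 replicate 1 gave 11. That cluster was led by Elane, Prtn3, Mpo and Ctsg, beside Top2a and Mki67. By its marker scores it was closer to basophils or mast cells (4.07) than to cycling cells (1.97). At a finer clustering Elane, Prtn3, Mpo and Ctsg were among the leading genes of a cluster named neutrophils instead. Hepatic stellate cells had the larger share, 3 UMIs in 3 of 248 cells (1.21%), all from HFD+F+CCl4 replicate 1. The lipid-associated macrophages held 10 UMIs, all from HFD+F+CCl4 replicate 1, and hepatocytes, NK cells, cholangiocytes and plasmacytoid dendritic cells held none. In cells summed over a type, the low count limits what can be seen: Il6 passed the filter on low counts in cycling cells alone and was not called there.

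The receptor chains marked different cells. Il6ra was highest in patrolling monocytes, monocytes or macrophages without a further name, and neutrophils, Il6st in endothelial and hepatic stellate cells, and the kinase and transcription factor were found in every type. Of the suppressors, Socs1 and Cish were highest in T and NK cells by the median over all mice, Socs2 in cholangiocytes and Socs3 in patrolling monocytes and neutrophils. These orders rest on medians over mice, and of 108 pairs of neighbouring types none differed at an adjusted p under 0.05 (exact sign-flip permutation tests, lowest adjusted p = 0.0993), while 22 did at an unadjusted p under 0.05.

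**Figure D1:**
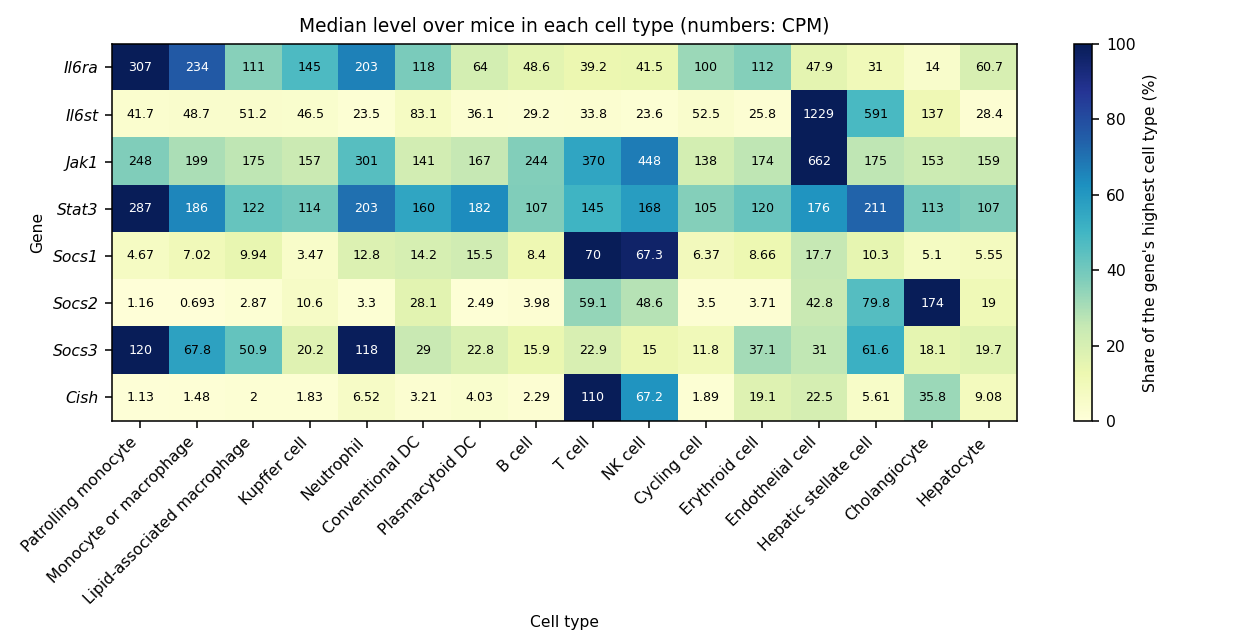
Levels of 8 members (all but Il6) in the named cell types. Each number is the median CPM over mice with at least 20 cells, and the colour gives it as a share of the gene's highest cell type. Il6ra is darkest in patrolling monocytes, Il6st in endothelial cells, Socs2 in cholangiocytes and Cish in T cells.

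How each NASH model differs from the control liver was asked in a pair of comparisons that share the 2 control mice. Between HFD+F+CCl4 mice and controls, Socs1 and Cish fell in lipid-associated macrophages and Il6st fell in plasmacytoid dendritic cells. Between WD+F+CCl4 mice and controls, Socs1 and Cish again fell in lipid-associated macrophages and Il6st in plasmacytoid dendritic cells. Socs1 also fell in monocytes and macrophages without a further name and in plasmacytoid dendritic cells. Socs2 fell in conventional and plasmacytoid dendritic cells, Il6ra rose in B and NK cells, Cish rose in T cells and Socs3 rose in B cells. A total of 10 cell types could be tested, and 78 of the 90 pairs of member and type passed the filter on low counts. In the first comparison 3 of 78 (3.85%) were called by edgeR's quasi-likelihood test at an adjusted p under 0.05, all of them lower, against 3.20% of all genes tested in these types (1.5% lower), so that the members' share lay near that of all genes. In the second, 11 of 78 (14.1%) were called, 4 higher and 7 lower, against 5.52% of all genes (2.87% higher and 2.65% lower). The median log2 fold change of the members was −0.14 and −0.12. The medians of all genes in single types ranged from −0.04 to 0.39 in the first comparison and from −0.05 to 0.41 in the second. The counts rested on the controls: without control replicate 1 no member was called in either comparison, and without control replicate 2 there were 1 and 5 calls. Without WD+F+CCl4 replicate 2 the second count was 1, without WD+F+CCl4 replicate 1 it was 6, and without HFD+F+CCl4 replicate 1 the first was 6.

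**Figure D2:**
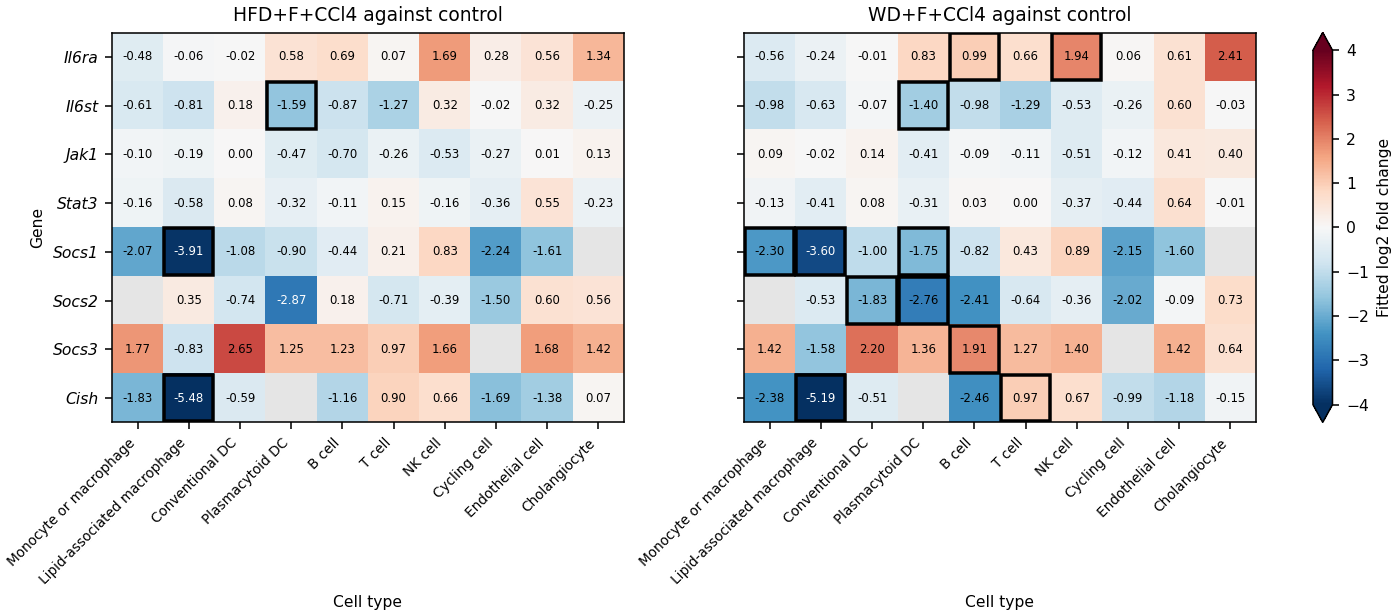
Fitted log2 fold changes of 8 members (all but Il6) in the 10 cell types tested, for each NASH model against the controls. Red is higher and blue lower in NASH mice on a scale from −4 to 4, black boxes mark an adjusted p under 0.05 (edgeR), and grey marks pairs that were not tested or, for Socs3 in cycling cells, controls at 0; the boxes number 3 and 11.

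Il6ra, the chain that binds IL-6, was highest in myeloid cells of these livers but was not confined to them. In monocytes and macrophages without a further name it stood at 351 and 336 CPM in the controls, at 287, 237 and 211 CPM in HFD+F+CCl4 mice and at 220.0, 232 and 229.5 CPM in WD+F+CCl4 mice. All 6 NASH mice lay below both controls, with log2 fold changes of −0.48 and −0.56 that were not called (edgeR, adjusted p = 0.064 in both). Patrolling monocytes, which the second control held too few of, had 427 CPM in control replicate 1 and 256 to 329.9 CPM in the NASH mice. Neutrophils spanned 185 to 272 CPM, with the control at 214 CPM inside the range of the others. Conventional dendritic cells had 118 CPM in each control and 102 to 146 CPM in NASH mice. Hepatocytes, of which the second control held too few, had 38.25 CPM in control replicate 1 and 43.1 to 90.7 CPM in NASH mice. The control value there rests on 4 UMIs, with an interval of 10.4 to 97.9 CPM that spans the NASH range. Over all cells of a mouse the order was turned around: the controls were at 59.5 and 63.1 CPM and the NASH mice at 109 to 162 CPM, in livers where monocytes and macrophages of all types numbered 457 and 206 cells in the controls and 5198 to 6870 in NASH mice, and fewer cells of a type and less RNA per cell cannot be told apart in such a sum.

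Il6ra rose in the B and NK cells of WD+F+CCl4 mice, calls that did not hold under all settings. T cells, at 37.4 and 36.6 CPM in the controls, 40.9, 31.7 and 43.4 CPM in HFD+F+CCl4 mice and 53.1, 75.8 and 30.2 CPM in WD+F+CCl4 mice, overlapped between the groups and were not called. The B cells were a single cluster led by Igkc, Igha and Jchain, which antibody-secreting plasma cells express, beside Cd79a, so that plasma cells were among them. At the finer clustering, where 174 plasma cells formed a cluster of their own, the B cell calls of Il6ra and Socs3 in WD+F+CCl4 mice were kept, with a log2 fold change of 0.98 for Il6ra (adjusted p = 0.011 in edgeR) and 1.89 for Socs3 (adjusted p = 0.0128). At that finer clustering most control and most WD+F+CCl4 B cells fell into different clusters. A B cell cluster held 101 and 53 control cells and 1472, 468 and 429 WD+F+CCl4 cells, and another 2186 and 140 against 8, 2 and 7. In the single cluster Il6ra stood at 30.8 and 37.0 CPM in the controls, 49.2, 49.5 and 43.9 CPM in HFD+F+CCl4 mice and 66.1, 61.1 and 47.9 CPM in WD+F+CCl4 mice. All 6 NASH mice lay above both controls. The log2 fold change in WD+F+CCl4 mice was 0.99 ± 0.23 (SE; edgeR, adjusted p = 0.0136). NK cells had 12.8 and 26.6 CPM in the controls, the second from 1 UMI, and 44.2, 70.9 and 25.8 CPM in WD+F+CCl4 mice, whose lowest mouse fell below the second control. The log2 fold change there was 1.94 ± 0.47 (edgeR, adjusted p = 0.0161), and without control replicate 1 it was 1.45 with an adjusted p of 0.62. Markers of monocytes and macrophages moved with both results: the summed level of the 8 genes in B cells was 822 and 1641 CPM in the controls, 2202 to 3019 CPM in HFD+F+CCl4 mice and 3330.0 to 4771 CPM in WD+F+CCl4 mice, and in NK cells 1082 and 1250.0 CPM against 2690.0 to 5097 CPM in WD+F+CCl4 mice. Barcodes scored as doublets, which can hold 2 cells, made up 13.2% of the WD+F+CCl4 B cells and 37.4% of their UMIs, against 5.34% and 7.84% in the controls. For NK cells the shares were 13.5% and 30.4% in WD+F+CCl4 mice against 4.065% and 6.36% in the controls. With these barcodes removed, the log2 fold change of Il6ra in B cells was −0.08 (edgeR, adjusted p = 0.951).

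Il6st, the shared signal-transducing chain, was found above all in endothelial cells. There it stood at 1228 and 943 CPM in the controls, at 1202, 1583 and 1229 CPM in HFD+F+CCl4 mice and at 1619 and 1623 CPM in the 2 WD+F+CCl4 mice with enough cells. The groups met, since an HFD+F+CCl4 mouse lay below the higher control, and no difference was called. Hepatic stellate cells, which were numerous enough in 2 HFD+F+CCl4 mice only, had 650.2 and 532 CPM. In the 7 mice with both types, endothelial cells lay above cholangiocytes, the next type in the order with enough mice for a test, in 7 of 7, by 3.19 on the log2(CPM + 1) scale (exact sign-flip permutation test, p = 0.0156, the smallest that 7 mice allow, adjusted p = 0.0993).

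In plasmacytoid dendritic cells, which produce type I interferon, Il6st fell in both NASH models. The controls had 70.8 and 83.2 CPM, HFD+F+CCl4 mice 44.6, 29.9 and 19.4 CPM, of which the first rests on 3 UMIs, and WD+F+CCl4 mice 19.1, 22.1 and 42.4 CPM. All 6 NASH mice lay below both controls. The log2 fold changes were −1.59 ± 0.37 in HFD+F+CCl4 mice (edgeR, adjusted p = 0.0266) and −1.40 ± 0.31 in WD+F+CCl4 mice (adjusted p = 0.0115), and each was lost without either control. T cells had 67.4 and 108 CPM in the controls and 23.0 to 62.8 CPM in NASH mice, again without overlap, with log2 fold changes of −1.27 and −1.29 that were not called (edgeR, adjusted p = 0.075 and 0.056). B cells overlapped, at 38.2 and 80.9 CPM in the controls and 11.0 to 42.8 CPM in NASH mice. T cell markers in plasmacytoid dendritic cells were higher in both controls than in the NASH mice, with values given below for Socs1 and Socs2. The part of T cell RNA in the Il6st values of these dendritic cells was not tested.

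**Figure D3:**
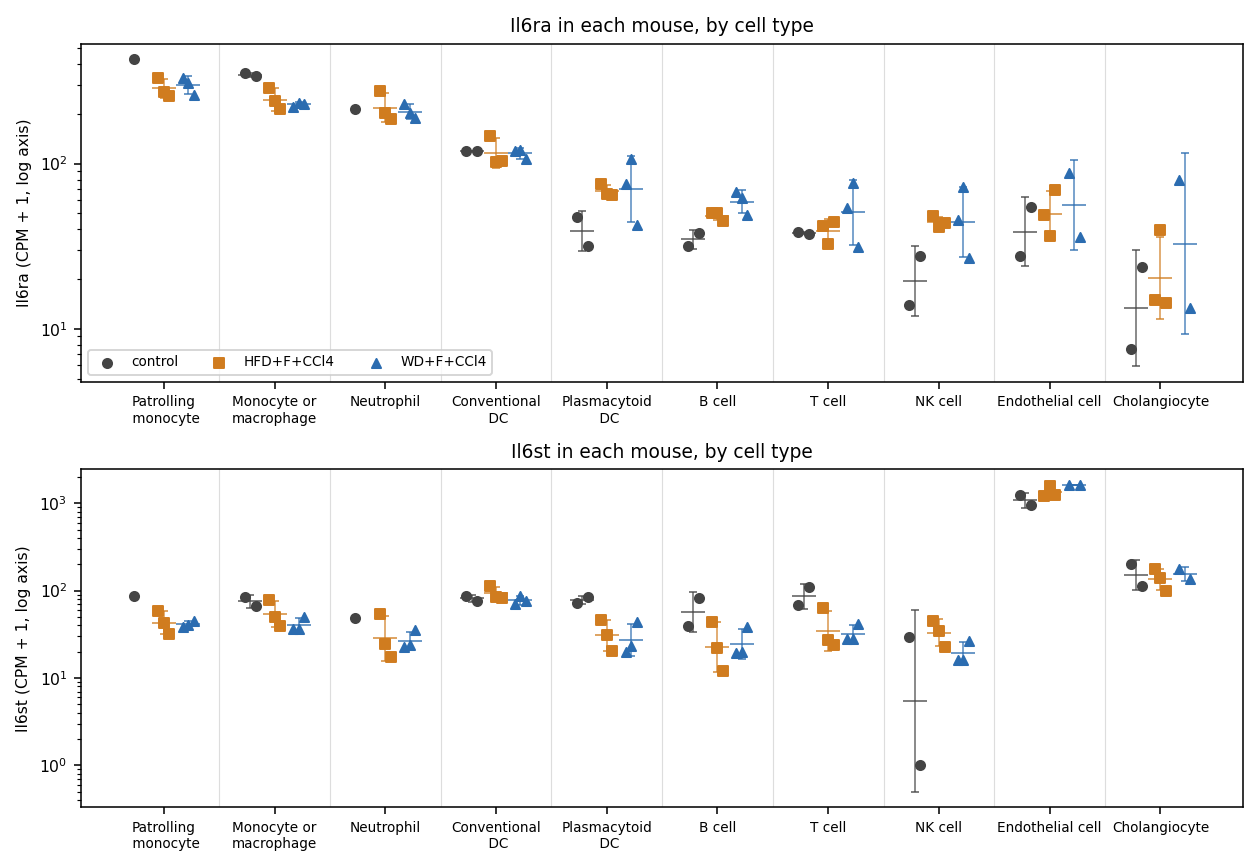
Il6ra and Il6st per mouse in selected cell types. Points are CPM + 1 of single mice on a log axis and bars the mean ± SD on the log10(CPM + 1) scale for the control (n = 2), HFD+F+CCl4 (n = 3) and WD+F+CCl4 (n = 3) groups. Il6ra of monocytes or macrophages sits at 351 and 336 CPM in the controls and at 287 CPM or lower in NASH mice, and Il6st of plasmacytoid dendritic cells at 44.6 CPM or lower in NASH mice.

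Jak1 and Stat3, the kinase and the transcription factor of the pathway, had no called difference in any of the 10 types in either comparison. Jak1 in endothelial cells ranged from 465 to 1300.0 CPM, with the controls at 615 and 792 CPM in the middle. In NK cells it was 741 and 585 CPM in the controls and 397 to 472 CPM in NASH mice, and in T cells 424 and 449 CPM against 338 to 396 CPM. In both types all NASH mice lay below both controls, without passing the test. Stat3 in monocytes and macrophages without a further name lay within 159.7 to 212 CPM in all 8 mice. In T cells it lay within 108 to 183 CPM, with overlap between the groups in each type.

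Socs1, which inhibits Janus kinases, overlapped between the groups in T cells, whereas B cells held 0 to 18.5 CPM of it. T cells had 63.9 and 64.8 CPM in the controls, 78.3, 65.3 and 78.0 CPM in HFD+F+CCl4 mice and 106, 74.7 and 52.6 CPM in WD+F+CCl4 mice. In lipid-associated macrophages, which carry Trem2 and Gpnmb and gather in the NASH liver, it fell in both models. The controls had 113 and 236 CPM, from 26 UMIs in 8 cells and 8 UMIs in 4 cells, HFD+F+CCl4 mice 9.16, 6.19 and 8.95 CPM and WD+F+CCl4 mice 10.1, 10.2 and 9.75 CPM. The NASH mice lay in a narrow range far below both controls. At a finer clustering the cluster named lipid-associated macrophages held only 4 and 0 control cells. There a cluster named monocytes or macrophages, led by C1qa, C1qb and Ms4a7, held 39 and 17. The results for Socs1 and Cish under this name thus could not be tested at that clustering. The log2 fold changes were −3.91 ± 0.32 (edgeR, adjusted p = 0.00177) and −3.60 ± 0.32 (adjusted p = 0.0035). Each was lost without control replicate 1, which leaves the 21 control cells of replicate 2.

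The monocytes and macrophages without a further name, here called the other monocytes and macrophages, moved the same way. They had 20.9 and 56.0 CPM of Socs1 in the controls, from 34 and 11 UMIs, 16.2, 3.13 and 5.43 CPM in HFD+F+CCl4 mice and 4.47, 5.13 and 8.61 CPM in WD+F+CCl4 mice, with all 6 NASH mice below both controls. Socs1 fell there in WD+F+CCl4 mice, with a log2 fold change of −2.30 ± 0.58 (edgeR, adjusted p = 0.032), and the −2.07 in HFD+F+CCl4 mice was not called (adjusted p = 0.076). The call in WD+F+CCl4 mice was kept under 12 of 17 alternative settings and lost without either control. In plasmacytoid dendritic cells the controls had 28.6 and 35.7 CPM and the WD+F+CCl4 mice 15.4, 4.42 and 4.18 CPM, a log2 fold change of −1.75 ± 0.46 (edgeR, adjusted p = 0.0267). This call was kept under 9 of 18 alternative settings and lost without either control, and the 7 T cell markers in these cells summed to 908 and 1379 CPM in the controls and 240.2 to 332 CPM in WD+F+CCl4 mice. Over all cells of a mouse the controls had 44.0 and 46.0 CPM and the NASH mice 11.9 to 17.0 CPM, beside a summed level of the 7 T cell markers of 2434 and 1910.0 CPM in the controls and 117 to 666 CPM in NASH mice.

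Cish, a target of Stat5, differed in opposite directions in T cells and macrophages. T cells had 58.8 and 84.0 CPM in the controls, 102, 139 and 140.1 CPM in HFD+F+CCl4 mice and 153, 98.9 and 118 CPM in WD+F+CCl4 mice, and all 6 NASH mice lay above both controls. It rose in WD+F+CCl4 mice by a log2 fold change of 0.97 ± 0.25 (edgeR, adjusted p = 0.0458), a call kept under 7 of 18 alternative settings, and the 0.90 ± 0.25 in HFD+F+CCl4 mice was not called (adjusted p = 0.069). In lipid-associated macrophages the controls had 39.0 and 177 CPM, from 9 UMIs in 5 cells and 6 UMIs in 3 cells, HFD+F+CCl4 mice 2.48, 0.767 and 1.08 CPM and WD+F+CCl4 mice 1.24, 1.99 and 2.01 CPM. The log2 fold changes were −5.48 ± 0.74 (edgeR, adjusted p = 0.0148) and −5.19 ± 0.73 (adjusted p = 0.0187), and each was lost without either control. In the other monocytes and macrophages Cish was at 9.21 and 0 CPM in the controls and 0.875 to 4.42 CPM in NASH mice, so that the second control, where a count of 0 allows up to 15.3 CPM, cannot be set above or below the others.

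Lymphocyte transcripts moved with these macrophage results. In lipid-associated macrophages the 7 T cell markers summed to 86.8 and 325 CPM in the controls, where 1 and 4 of them were at 0, and to 10.4 to 17.8 CPM in NASH mice, and the 5 NK cell markers to 26.0 and 354 CPM against 0.777 to 9.46 CPM. Set against the level in T cells of the same control mouse, the T cell markers in lipid-associated macrophages stood at 2.04% and 9.51%, Socs1 at 177% and 365% and Cish at 66.5% and 211%. In the other monocytes and macrophages the T cell markers summed to 77.4 and 265 CPM in the controls and 3.69 to 21.6 CPM in NASH mice. In the controls they stood there at 1.82% and 7.75% of the level in T cells, and Socs1 at 32.7% and 86.4%. The part of lymphocyte RNA in these macrophage values was not tested. T cells themselves were grouped differently at a finer clustering, where most control T cells fell into a cluster that could not be named, led by Cxcr6, Il2rb and Klrb1c. That cluster held 3045 and 765 control cells and 10 to 39 cells of each NASH mouse. Whether the mix of T cells had a part in the T cell values of any member was not tested.

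**Figure D4:**
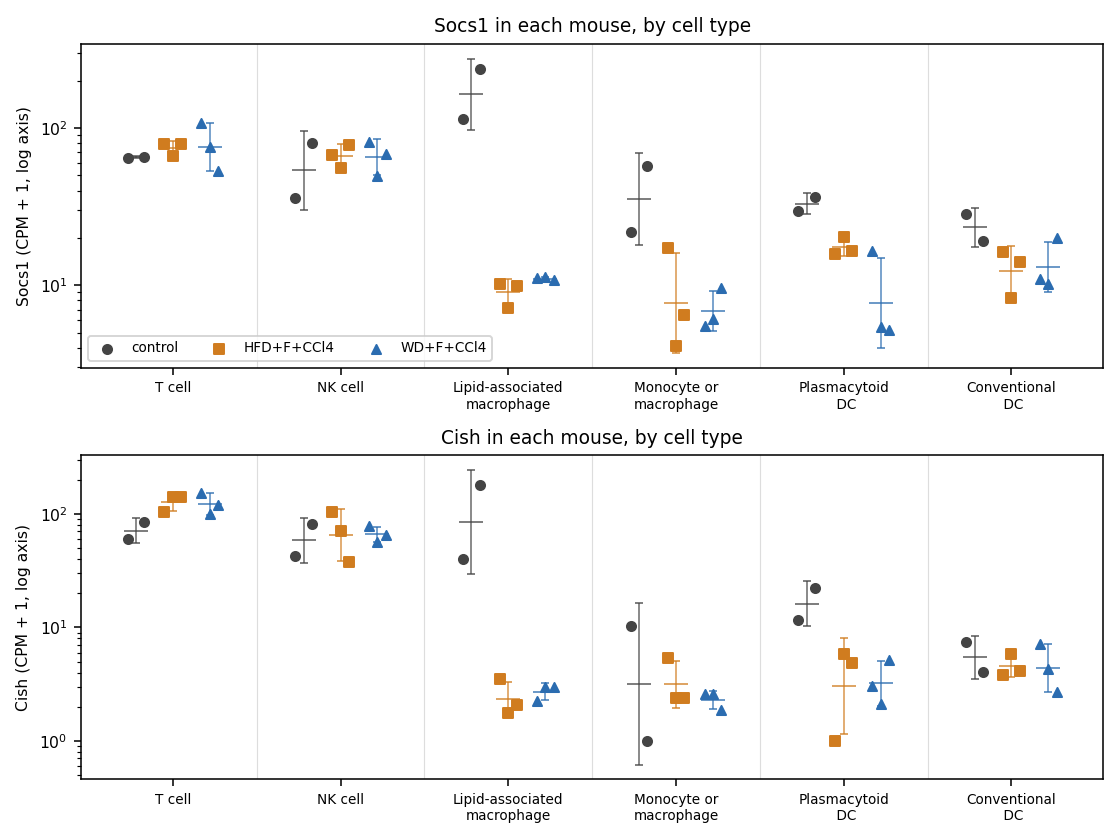
Socs1 and Cish per mouse in T cells and in monocyte and macrophage types. Points are CPM + 1 of single mice on a log axis and bars the mean ± SD on the log10(CPM + 1) scale for the control (n = 2), HFD+F+CCl4 (n = 3) and WD+F+CCl4 (n = 3) groups. In lipid-associated macrophages Socs1 lies at 113 and 236 CPM in the controls and at 10.2 CPM or lower in NASH mice, whereas Cish in T cells lies at 98.9 CPM or higher in NASH mice.

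Socs2, which restrains growth hormone signalling, was highest in cholangiocytes, the epithelial cells of bile ducts. They had 137 and 90.3 CPM in the controls, 174, 168 and 181 CPM in HFD+F+CCl4 mice and 178 and 199 CPM in 2 WD+F+CCl4 mice, and cholangiocytes exceeded T cells, the next type with enough mice for a test, in 7 of 7 mice. Hepatic stellate cells had 103 and 56.3 CPM in the 2 HFD+F+CCl4 mice with enough of them. In cholangiocytes all 5 NASH mice with enough cells lay above both controls, without a call. In conventional dendritic cells Socs2 fell in WD+F+CCl4 mice: the controls had 53.5 and 54.4 CPM, HFD+F+CCl4 mice 36.4, 18.2 and 41.8 CPM and WD+F+CCl4 mice 12.2, 13.8 and 19.8 CPM. UMIs of Socs2 were in 22 of 229 and 14 of 228 control cells. In WD+F+CCl4 mice they were in 20 of 598, 34 of 1056 and 24 of 394 cells. The cluster was led by Cd209a, Ccl22 and Xcr1 and was not split into kinds of dendritic cell. Whether its make-up, the share of cells with Socs2 or the level per cell changed was not tested. The log2 fold change was −1.83 ± 0.36 (edgeR, adjusted p = 0.0124), and it kept its call under 16 of 18 alternative settings, all but leaving out WD+F+CCl4 replicate 2 or control replicate 1.

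Plasmacytoid dendritic cells followed the same direction at a low level. Their controls had 15.04 and 21.4 CPM of Socs2, HFD+F+CCl4 mice 0, 2.39 and 2.59 CPM and WD+F+CCl4 mice 3.65, 0 and 2.39 CPM, and the log2 fold change in WD+F+CCl4 mice was −2.76 ± 0.69 (edgeR, adjusted p = 0.0219), a call lost without either control and without WD+F+CCl4 replicate 2. The 0 of HFD+F+CCl4 replicate 1 comes from 20 cells and allows up to 44.65 CPM, above both controls, while that of WD+F+CCl4 replicate 2 allows up to 3.31 CPM. The T cell markers in plasmacytoid dendritic cells summed to 908 and 1379 CPM in the controls and 240.2 to 432 CPM in NASH mice, and in conventional dendritic cells to 182 and 441 CPM against 32.1 to 125 CPM. Socs2 itself was at 87.9 and 80.2 CPM in the T cells of the controls and at 20.9 to 75.3 CPM in those of NASH mice, with all 6 below both controls and no call. The part of T cell RNA in the dendritic cell values was not tested.

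Socs3, the suppressor that IL-6 itself induces, was highest in neutrophils and patrolling monocytes, which did not differ in order beyond the spread between mice. Its fitted log2 fold change was positive in 8 of the 9 types with UMIs in the controls in each comparison, all but lipid-associated macrophages (−0.83 and −1.58), with medians of 1.42 and 1.40, but it was called in B cells of WD+F+CCl4 mice alone. The types share the same control mice. The median of all genes in a type lay between −0.04 and 0.39 in HFD+F+CCl4 mice and between −0.05 and 0.41 in WD+F+CCl4 mice. In cycling cells both controls were at 0, which allows up to 9.94 and 83.7 CPM, and the NASH mice had 9.82 to 47.8 CPM. B cells had 4.87 and 11.6 CPM in the controls, 23.6, 8.11 and 11.0 CPM in HFD+F+CCl4 mice and 21.6, 20.6 and 20.3 CPM in WD+F+CCl4 mice, whose 3 values lay close together above both controls. The log2 fold change was 1.91 ± 0.45 (edgeR, adjusted p = 0.0151). Without the doublet barcodes it was 1.32 (adjusted p = 0.271) and without control replicate 1 it was 1.12 (adjusted p = 0.395).

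Within the HFD+F+CCl4 group a single mouse set the range of Socs3. Monocytes and macrophages without a further name had 31.9 and 25.4 CPM in the controls. They had 195, 54.9 and 86.7 CPM in HFD+F+CCl4 mice and 46.1, 80.7 and 125 CPM in WD+F+CCl4 mice, with all 6 NASH mice above both controls. Conventional dendritic cells had 6.37 and 12.1 CPM in the controls, 112, 13.1 and 29.7 CPM in HFD+F+CCl4 mice and 28.4, 35.5 and 40.8 CPM in WD+F+CCl4 mice. In both types HFD+F+CCl4 replicate 1 was the highest of the 8 mice. Neutrophils had 83.3 CPM in the 1 control with enough cells and 84.8 to 363 CPM in NASH mice, the highest again in HFD+F+CCl4 replicate 1. Patrolling monocytes had 119.5 CPM in the 1 control with enough cells, inside the 73.6 to 387 CPM of NASH mice. Summed over all monocyte and macrophage types, the groups overlapped. The controls had 42.3 and 53.7 CPM there and the NASH mice 29.8 to 184 CPM.

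Genes that respond to tissue dissociation stood highest in the same mouse. Their level was summed over 15 genes. In monocytes and macrophages without a further name it was 1316 and 1323 CPM in the controls. The HFD+F+CCl4 mice had 5748, 1200.0 and 1764 CPM and the WD+F+CCl4 mice 1346, 1254 and 4113 CPM. In B cells the summed level was 515 and 532 CPM in the controls, 3877, 554 and 1021 CPM in HFD+F+CCl4 mice and 876, 588 and 2190.0 CPM in WD+F+CCl4 mice. The mice highest for this sum were HFD+F+CCl4 replicate 1 and WD+F+CCl4 replicate 3. These were also the mice highest for Socs3 in monocytes and macrophages without a further name. Whether dissociation had a part in the Socs3 levels was not tested.

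**Figure D5:**
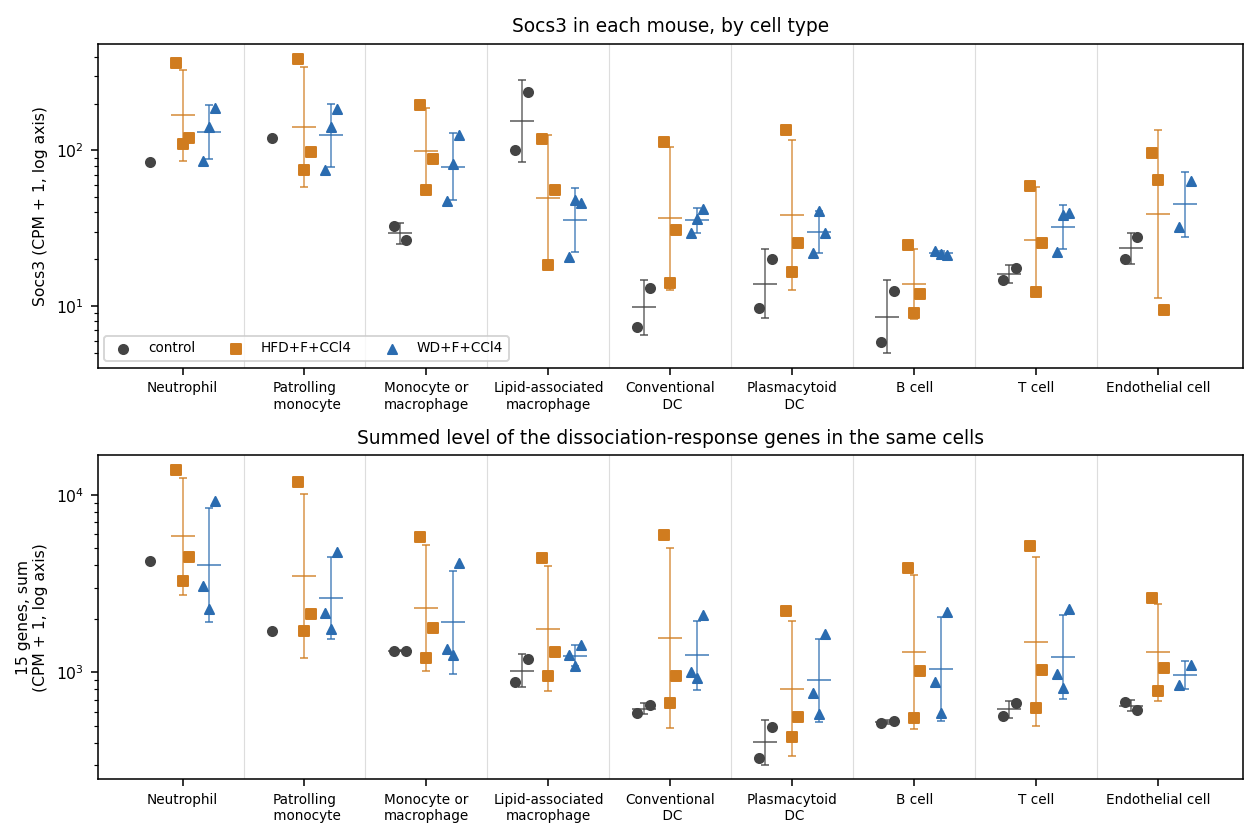
Socs3 per mouse in selected cell types, beside the summed level of 15 dissociation-response genes. Points are CPM + 1 of single mice on a log axis and bars the mean ± SD on the log10(CPM + 1) scale for the control (n = 2), HFD+F+CCl4 (n = 3) and WD+F+CCl4 (n = 3) groups. Replicate 1 of HFD+F+CCl4 is the highest mouse for Socs3 in monocytes or macrophages, at 195 CPM, and for the summed level there, at 5748 CPM.

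The change between control and NASH mice was then set against that in T cells, for all monocyte and macrophage types summed per mouse. For Socs1, the difference between NASH mice and controls on the log2(CPM + 1) scale was −2.64 in monocytes and macrophages and 0.20 in T cells, and the difference between them was −2.84. For Cish it was −3.04 and 0.81 with a difference of −3.85, and for Il6ra −0.81 and 0.23 with a difference of −1.04. The monocyte and macrophage sums of the controls held 62 and 19 UMIs of Socs1, 30 and 6 of Cish and 638 and 69 of Il6ra. All 6 UMIs of Cish in control replicate 2 came from 3 lipid-associated macrophages. In each of the 3 genes all 6 NASH mice lay below both controls for the quantity compared, which gave the smallest p that 28 splits allow (exact two-sided permutation test, p = 0.0357) and an adjusted p of 0.107 over the 9 members. The types of macrophage that made up the sum differed between the groups, since few control cells were lipid-associated macrophages. The T cells differed in make-up too. At the finer clustering most control T cells fell into a cluster with 3045 and 765 control cells and 10 to 39 cells of each NASH mouse. The share of all genes that separate in this way is not given here, so whether 3 of 9 members stand out cannot be told.

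The genes most like 4 of the members were sought over 91 sums of at least 50 cells per mouse and type, in 16 types, among 7052 genes with a mean of at least 20 CPM. Il6ra was closest to Nfam1 (Pearson r = 0.932 across sums), Csf2ra (r = 0.926) and Pirb (r = 0.921). Cish was closest to Tox (r = 0.862), Ctla2a (r = 0.833) and Tnfsf10 (r = 0.821), and Socs2 to Nedd4 (r = 0.781), Myo6 (r = 0.78) and Zc3h7b (r = 0.778). Socs3 was closest to Ccrl2 (r = 0.813), Zfand5 (r = 0.812) and Nr4a1 (r = 0.807), the last of which is also in the dissociation-response list. The sums share mice and libraries, and these values are descriptions.

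The other genes of the pathway gave the setting in which the members moved. Among 14 target genes of Stat3, 10 of 130 tests over types rose and none fell in HFD+F+CCl4 mice (7.69%), and 12 rose and 2 fell in WD+F+CCl4 mice (10.8%), with median log2 fold changes of 0.68 and 0.58. The shares of all genes called in these comparisons were 3.20% and 5.52%. Cebpb, a transcription factor of the acute-phase response and 1 of these 14 targets, rose in 15 of 20 tests over both comparisons, by log2 fold changes of 1.51 to 3.81. It gave most of the higher calls of the list, beside 3 each of Cebpd and Ccnd1 and 1 of Junb. The share of this list above that of all genes thus rests mainly on 1 gene. Ptpn1, a phosphatase that acts on Janus kinases, rose in 10 tests by 0.89 to 2.11, among 12 other negative regulators of which 5 of 119 tests rose and 1 fell in HFD+F+CCl4 mice and 10 rose and 1 fell in WD+F+CCl4 mice.

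The other cytokines and receptors of the family gave 1 to 3 calls a list in each comparison, to be read against the same 3.20% and 5.52% of all genes. Of the 8 ligands, 5 were tested, with 1 of 26 tests higher in HFD+F+CCl4 mice (3.85%) and 1 higher and 1 lower in WD+F+CCl4 mice (7.69%). Of the 6 other receptors, 5 were tested, with 2 of 30 tests lower in HFD+F+CCl4 mice (6.67%) and 3 lower in WD+F+CCl4 mice (10.0%). The 9 other Janus kinases and STATs gave 1 higher and 7 lower calls of 90 tests in each comparison (8.89%). Adam10 and Adam17, the proteases that shed the receptor, gave 1 higher call of 20 tests in HFD+F+CCl4 mice (5%) and no call in WD+F+CCl4 mice. The 7 Stat5 targets gave 4 higher and 1 lower call of 59 tests in HFD+F+CCl4 mice and 3 higher and 2 lower in WD+F+CCl4 mice (8.47% in each).

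Acute-phase genes of hepatocytes, which IL-6 induces in that cell, had the largest share of calls among these lists, mostly lower: 2 of 80 tests rose and 16 fell in HFD+F+CCl4 mice (22.5%), and 10 rose and 29 fell in WD+F+CCl4 mice (48.8%). The fibrinogen chains led, Fgb with 13 calls that fell by log2 fold changes of −5.77 to −2.33, Fgg with 12 lower calls and Fga with 10. Hp, haptoglobin, which neutrophils also store, had 8 calls, all higher, by 1.72 to 3.58. These tests were in types other than hepatocytes, which the second control held too few of, and the summed hepatocyte markers in T cells stood at 1026 and 1403 CPM in the controls, 749, 688 and 155 CPM in HFD+F+CCl4 mice and 92.5, 77.7 and 163 CPM in WD+F+CCl4 mice. The part of free hepatocyte RNA in these values was not tested. The 15 dissociation-response genes, 2 of which are also Stat3 targets, rose in 7 and 6 of 144 tests (4.86% and 4.17%) and fell in 0. Of all genes, 1.7% and 2.87% were called higher. The median log2 fold changes of these 15 genes were 1.54 and 0.98. Those of all genes in single types ranged from −0.04 to 0.39 and from −0.05 to 0.41.

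The last comparison asks whether the models differ from each other, and here no member was called. Of 78 tests 0 passed an adjusted p under 0.05 in edgeR and 0 in DESeq2, against 0.00542% of all genes in edgeR, and 3 had an unadjusted p under 0.05. These were Jak1 in B cells, at 197, 189 and 93.4 CPM in HFD+F+CCl4 mice and 271, 245 and 244 CPM in WD+F+CCl4 mice (log2 fold change 0.62), Socs2 in B cells (−2.59) and Socs2 in conventional dendritic cells (−1.09). The fitted change of Jak1 was positive in 10 of 10 types, without a call in any. The types share the same mice, and the share of all genes with 1 sign in all 10 types is not given here. Whether Jak1 stands out thus cannot be told. The other pathway lists held no call in this comparison.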

How the data were processed

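Liver tissue of 8 mice was dissociated with collagenase IV, papain and DNase I, and single-cell 3′ libraries were made by the authors with the 10x Chromium V3 kit. The authors demultiplexed the reads with bcl2fastq 2.20 and deposited gene by barcode UMI counts from Cell Ranger, of which the header of the deposited count matrices gives version 4.0.0 and the methods another version. All 55450 gene identifiers matched GENCODE M21 on GRCm38. Each mouse is 1 replicate, and groups followed the labels.

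The filters were over 500 genes and a mitochondrial share of UMIs below 25%. Cells were scaled to 10000 UMIs and clustered with scanpy 1.11.5 on 2000 variable genes, 30 components and 20 neighbours (Leiden, resolution 0.42, seed 1), with 89 genes, the members and pathway genes among them, kept out. As a rule a cluster took the name with the highest mean z score of its markers over clusters. That score had to reach 0.5, with at least 3 markers each detected in over a 0.1 share of its cells. The highest score did not give every name: the cluster named cycling cells scored 4.07 for basophils or mast cells and 1.97 for cycling cells. The gap of 0.5 to a rival name, the cycling limit and the rule on the top 10 genes were set after seeing the data, and the resolution came from earlier work on these data. The members, the gene lists and the tests were chosen with earlier results of these data known. Doublets, ranked by Scrublet score in each library at a rate of 0.8% per 1000 barcodes, were kept except in 1 alternative.

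UMI counts were summed per mouse and type with at least 20 cells and fitted with edgeR 4.0.16 (limma 3.58.1, R 4.3.3): TMM scaling, filterByExpr with a minimum of 10 counts, the quasi-likelihood test, 1 fit per type with group as the only term, and Benjamini-Hochberg adjustment over all genes of the type, with calls at an adjusted p under 0.05. Exact permutation tests used log2(CPM + 1). Poisson intervals at 95% and the limit of 3 counts for a count of 0 cover counting error only. Named were all 9 members, the 6 pathway genes called in the most tests, and the 3 genes most like Il6ra, Socs2, Socs3 and Cish. On simulated counts for HFD+F+CCl4 against control, edgeR recovered 72.5% of 200 genes changed by a log2 of 2 among 13184 genes in T cells with 6 false calls, 78.5% among 9445 genes in plasmacytoid dendritic cells with 11, and 19.5% among 13948 genes in lipid-associated macrophages with 2. The alternatives were DESeq2 1.42.0, other size factors, no scaling, no filter, removal of doublets, over 1000 genes per cell, a mitochondrial limit of 10%, resolution 0.8, the 2 groups alone, the replicate number as a block and each mouse left out.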

Additional observations from a re-analysis of the deposited data

Results flagged for a closer look

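The members Il6ra, Socs1 and Cish were flagged for their change from control to NASH mice in summed monocytes and macrophages set against T cells. A test of the difference itself passed before and not after adjustment over the members. The make-up of the macrophage sum and of the T cells differed between the groups. In that sum the controls held 30 and 6 UMIs of Cish. The difference of differences on the log2(CPM + 1) scale was −1.04 for Il6ra, −2.84 for Socs1 and −3.85 for Cish, with all 6 NASH mice below both controls in each (exact two-sided permutation test, p = 0.0357, the smallest that 28 splits allow, adjusted p = 0.107 over 9 members). The share of all genes that separate in this way is not given here, so whether these members stand out cannot be told. The T cell markers in lipid-associated macrophages of the controls, at 86.8 and 325 CPM where NASH mice had 10.4 to 17.8 CPM, moved with the results for Socs1 and Cish.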

How the results depend on the processing

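The counts of called members moved with the settings. For HFD+F+CCl4 against control (3 called), DESeq2 gave 8, over 1000 genes per cell 0, no filter 15, the 2 groups alone 5, resolution 0.8 gave 7 and leaving out 1 mouse 0 to 6. For WD+F+CCl4 against control (11 called), removing doublets gave 6, over 1000 genes per cell 6, no filter 26 and leaving out 1 mouse 0 to 14. For WD+F+CCl4 against HFD+F+CCl4 (0 called), no filter gave 3 and leaving out 1 mouse 0 to 1, the 1 without WD+F+CCl4 replicate 3. Leaving out the lipid-associated macrophages, chosen after seeing the data, gave 1 and 9 against control. The replicate block gave 2, 6 and 0 calls. The shares of all genes called under these alternatives, or with a mouse left out, are not given here. Whether the members moved more than all genes did thus cannot be told. Correlations of same-numbered mice were −0.225 to 0.143 in T cells and −0.624 to 0.0771 over all cells. Those of mice with different numbers were −0.143 to 0.198 and −0.485 to 0.618. So few pairs cannot tell whether same-numbered mice were handled together. The Il6 difference was 0.0059 without control replicate 2 and 0.10 with over 1000 genes per cell, both reversed, and spanned −1.52 to 0.0059 with 1 mouse left out (−0.85, exact permutation p = 0.0476, without HFD+F+CCl4 replicate 1). The 3 members that differed between monocytes and macrophages and T cells at an unadjusted p under 0.05 became 0 to 4 with 1 mouse left out, and 0 without either control, where too few splits remain to reach 0.05. Over the single calls and their alternatives, 175 values kept their call, 64 lost it and 1 changed direction, Il6ra in B cells at −0.082 with doublets removed. Without scaling, the median of all genes moved by −0.178 to 0.0519 against control (log2), and no called direction turned. The causes of these changes were not tested. With 2 controls and 21 to 55 control cells of some types, depth and cell number limit the low genes most.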
